A study of Mus musculus with 5 samples.

Results

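The genes described here belong to the Ly6 family of small surface proteins, and the list held 6 genes: Ly6f, Ly6a, Ly6c1, Ly6d, Ly6e and Ly6g. They were read through all probe sets that the array's annotation assigns to these genes, which gave 5 probe sets for 4 genes. Of these, 3 are among the 18193 genes with a probe set of their own on the array. Ly6e had 2 probe sets, Ly6f and Ly6d had 1 each, and Ly6c1 was read through 1 probe set that the annotation assigns to both Ly6c1 and Ly6c2. Ly6a and Ly6g were not analysed here. The family was chosen by the high Ly6f value on the ITD78 array, so the Ly6f values are given as a description.

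Expression was measured in 32D cells, a mouse myeloid progenitor line that normally needs interleukin-3, carrying stably integrated retroviral constructs of FLT3-ITD, the receptor tyrosine kinase FLT3 with an internal tandem duplication that makes it signal without ligand. There were 5 groups, ITD78, ITD613, ITD598, ITD602 and ITD611, named by construct, with 1 Affymetrix array each. In every group the cells were starved for 3 h before 1 h with a tyrosine kinase inhibitor that the labels do not name. No array without a construct or without the inhibitor was analysed here. With 1 array per construct nothing could be tested, no p-value is given, and a difference of at least 1 on the log2 scale (2-fold) was used as a rule of size.

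Ly6 proteins are small, cysteine-rich proteins that most often sit on the cell surface through a glycosylphosphatidylinositol (GPI) anchor, a lipid attached in the endoplasmic reticulum. In mouse blood they serve as lineage markers: Ly6G marks granulocytes, Ly6C marks monocytes and other myeloid cells, Sca-1 (the product of Ly6a) marks stem and progenitor cells, and Ly6D marks cells entering the B lineage. Ly6e encodes a broadly expressed member, and Ly6a, Ly6c1 and Ly6e are known to respond to interferon. Most of the genes lie side by side in a cluster on mouse chromosome 15.

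Upstream sequences of some of these clustered genes were compared, with Ly6f as the member on which the results turn. Those of other clustered genes, such as Ly6d and Ly6e, were not compared. Of the RefSeq promoter sequences of the GRCm38.p6 assembly, entries for Ly6f, Ly6g, Ly6c1 and Ly6c2 were used, and the first 3 are printed up to the first annotated start of each gene, from 5′ to 3′ on the strand of the gene. Where a gene had several entries, the one with the most bases identical to Ly6f was taken. The identities given below are therefore the highest among the entries considered. Capitals mark the longest run of 18 bases that the 3 stretches share. Ly6f lies at chr15:75268171-75268371 on the plus strand (201 bases), Ly6g at chr15:75155079-75155260 on the plus strand (182 bases) and Ly6c1 at chr15:75048921-75049087 on the minus strand (167 bases).
Ly6f: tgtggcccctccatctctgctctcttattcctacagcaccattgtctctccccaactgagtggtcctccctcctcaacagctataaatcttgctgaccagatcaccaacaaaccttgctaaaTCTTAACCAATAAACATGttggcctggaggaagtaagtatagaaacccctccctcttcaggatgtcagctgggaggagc
Ly6g: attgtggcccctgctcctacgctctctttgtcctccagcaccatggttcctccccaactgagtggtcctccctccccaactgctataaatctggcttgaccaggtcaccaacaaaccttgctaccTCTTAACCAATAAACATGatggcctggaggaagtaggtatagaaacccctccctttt
Ly6c1: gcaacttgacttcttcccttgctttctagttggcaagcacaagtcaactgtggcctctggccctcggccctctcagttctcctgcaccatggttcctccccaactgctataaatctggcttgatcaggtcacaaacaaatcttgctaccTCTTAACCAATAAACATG

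Over the full 250 bases before the listed start, Ly6f and Ly6g were identical at 215 of 247 aligned positions (87.0%), Ly6f and Ly6c1 at 179 of 217 (82.5%), and Ly6f and Ly6c2 at 182 of 224 (81.2%). All 3 printed stretches hold TATAAA and CCAAT, letters that were looked for after the sequences had been read and that occur on either strand in 9.18% and 28.6% of the first 201 bases of 32851 promoter windows. The CCAAT match lies within the shared run. The corresponding Ly6c2 stretch (155 bases) holds neither TATAAA nor CCAAT nor the shared run, so these letters are not common to all 4 genes. None of the 4 stretches holds TTCNNNGAA, the letters of a STAT site (5.80% of windows), AGATAA, those of a GATA site (8.44%), or a pair of GAAA with 2 bases between them, those of an interferon response element (2.42%). These matches describe letters in a window and do not show that a factor binds. The sequences of the array's probes, which lie in transcripts and not in promoters, were not analysed here, and whether a Ly6 probe set also binds transcripts of a similar gene was not tested.

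Ly6f was high on 1 array. Its probe set read 6.07 (log2) on the ITD78 array, against 2.20 on ITD613, 3.00 on ITD598, 2.53 on ITD602 and 2.21 on ITD611. ITD78 thus lay far above the other arrays, which averaged 2.49 ± 0.37 (SD, n = 4 arrays, a spread between constructs and not between replicates). The difference was 3.58 from that mean and 3.07 from the next array, ITD598.

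Values on these arrays are stepped at the low end, where the same value recurs in many probe sets of an array. The highest value shared by at least 100 probe sets was 3.74, and between 23.7% and 30.3% of the probe sets of an array had such a shared value. All 4 low Ly6f values lie in this range, and the one on ITD598 was shared by 114 probe sets. The difference from ITD78 therefore says little about size: with every value below 3.74 raised to that level, ITD78 lay 2.33 above the other 4 arrays.

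**Figure D1:**
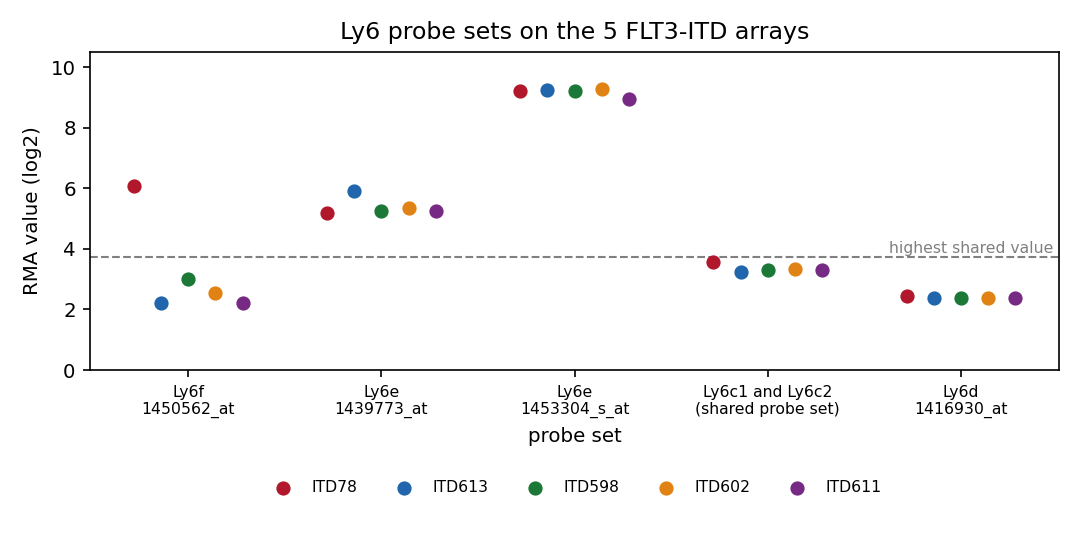
RMA values (log2, y axis) of the 5 Ly6 probe sets (x axis) on the 5 arrays, 1 point per array, with the dashed line at 3.74, the highest value shared by at least 100 probe sets of an array. Ly6f is at 6.07 on ITD78 and between 2.20 and 3.00 on the other arrays. The widest range among the other probe sets is 0.70, in the Ly6e probe set without the _s_at suffix, where ITD613 is highest at 5.90.

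Among the 9621 genes that passed a filter on low values (a highest value of at least 2.75, the 60th percentile of all values), Ly6f had the greatest distance of ITD78 above every other array, 3.07, and Vwf was next at 2.65. With low values raised to 3.74, Vwf came first at 2.65 and Ly6f second at 2.33. ITD78 was at least 2-fold above every other array for 5 genes in all (0.052% of those that passed), and for 41 without the ITD613 array. Ly6f was the one gene among the 4 measured members that met this rule. It is the gene for which the family was chosen, so nothing is read from that count. It reached the filter on 2 of 5 arrays, ITD78 and ITD598.

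**Figure D2:**
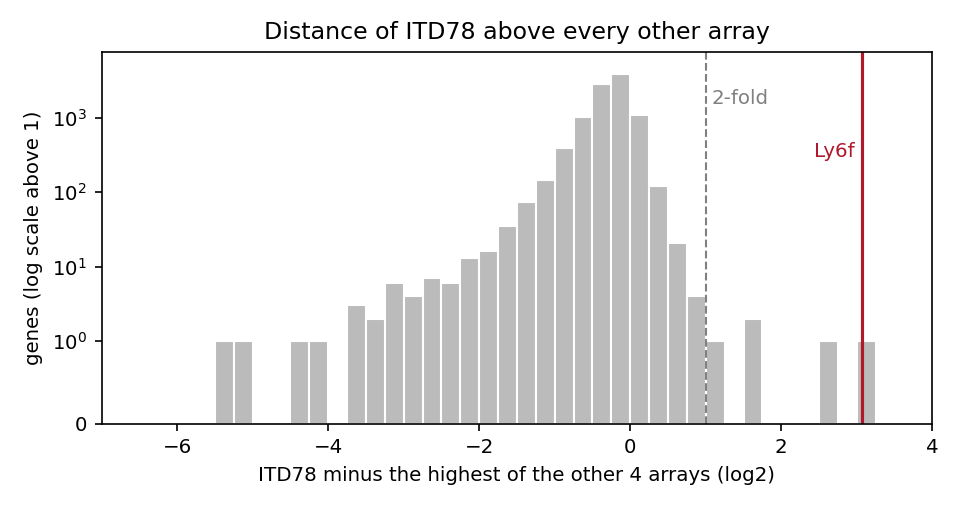
Number of genes (y axis, log scale above 1) by the distance of ITD78 from the highest of the other 4 arrays (x axis, log2), over 9621 genes. The dashed line marks 2-fold, 5 genes lie beyond it, and Ly6f is farthest to the right at 3.07.

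The genes whose values over the 5 arrays were most like those of Ly6f were Vwf, Mrvi1 and Cltrn. Likeness was measured as the Euclidean distance between values centred on each gene's mean over the 5 arrays, which was 1.28 for Vwf, 1.71 for Mrvi1 and 1.91 for Cltrn, with a median of 3.32 over 9619 genes. Vwf, which encodes von Willebrand factor of endothelium and platelets, read 6.56 on ITD78, against 3.91 on ITD613, 2.96 on ITD598, 3.47 on ITD602 and 3.12 on ITD611. Mrvi1, a substrate of cyclic GMP-dependent kinase in smooth muscle and platelets, read 5.12 on ITD78 and between 2.83 and 3.53 on the other 4 arrays. Cltrn, which encodes collectrin, a protein needed for amino acid transport in the kidney, read 4.87 on ITD78 and between 3.28 and 3.31 on the others. Apart from Vwf on ITD613, the values of these 3 genes on the arrays other than ITD78 lie below 3.74, as those of Ly6f do, so no order among those arrays is read from them.

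The neighbours of Ly6f on chromosome 15 did not share its high value on ITD78. They were described after the Ly6f values were known, as the nearest protein-coding genes on each side in RefSeq's order that have a probe set, and 23 readings were made. Before Ly6f they cover 12 genes with a probe set of their own and the probe set shared by Ly6c1 and Ly6c2, and after Ly6f 10 genes. None of them was 2-fold above every other array on ITD78, and their differences of ITD78 from the mean of ITD598, ITD602 and ITD611 ran from -0.47 (Top1mt, a mitochondrial topoisomerase gene) to 0.40 (Lynx1, a Ly6-type modulator of nicotinic acetylcholine receptors), against 3.49 for Ly6f. Ly6g2, the nearest measured gene before Ly6f, read 2.29 on ITD78, against 2.35 on ITD613, 2.15 on ITD598, 2.32 on ITD602 and 2.32 on ITD611. Ly6h, the nearest measured gene after Ly6f, read 1.46 on ITD78 and between 1.46 and 1.58 on the other 4 arrays. Ly6i, a further clustered member, read 1.43 on ITD78 and between 1.26 and 1.51 on the others. Of the 23 readings, 18 lie in the low, stepped range on every array, among them those of Ly6g2, Ly6h, Ly6i, Top1mt and Lynx1, so differences could be hidden there. The other 5 (Ly6e, Zc3h3, Gsdmd, Eef1d and Tigd5) differed on ITD78 by -0.08 to 0.04 from the mean of ITD598, ITD602 and ITD611. Zfp41, a zinc finger gene, was the 1 neighbour that ranged over 2-fold, with 3.30 on ITD78, 3.69 on ITD613, 2.62 on ITD598, 2.97 on ITD602 and 3.17 on ITD611, also in the low range.

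**Figure D3:**
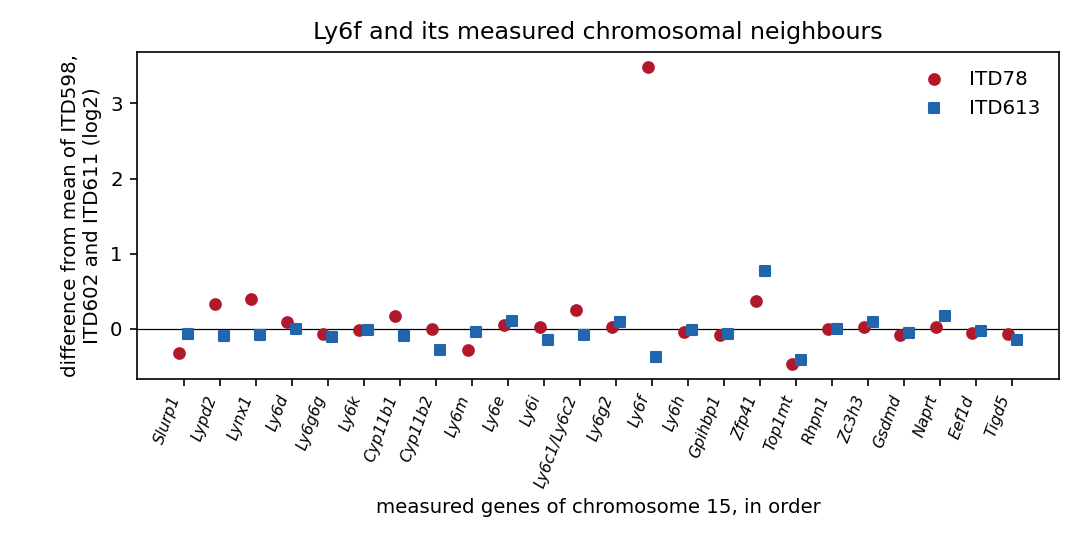
Differences (log2, y axis) of ITD78 (circles) and ITD613 (squares) from the mean of ITD598, ITD602 and ITD611, for Ly6f and the 23 readings of its neighbours in their order on chromosome 15 (x axis). The Ly6f circle is at 3.49, and the other circles lie between -0.47 and 0.40, 18 of them from values in the low range.

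Ly6e was clearly above the low range on every array and differed little between constructs, with probe sets that did not give the same order. The probe set with the suffix _s_at, used for probes that can match several transcripts, read 9.20 on ITD78, 9.26 on ITD613, 9.22 on ITD598, 9.29 on ITD602 and 8.95 on ITD611, a range of 0.34 with ITD611 lowest. The other probe set read 5.90 on ITD613, against 5.20 on ITD78, 5.24 on ITD598, 5.36 on ITD602 and 5.24 on ITD611. There ITD613 stood above the other arrays by 0.54, while in the _s_at probe set ITD602 was highest, 0.03 above ITD613. The difference of ITD613 from the mean of ITD598, ITD602 and ITD611 was 0.11 in the _s_at probe set and 0.62 in the other, both under 2-fold. The SD of the differences over the 9621 genes that passed the filter between ITD613 and those arrays ran from 0.55 (ITD598) to 0.63 (ITD602), and between ITD598 and ITD611, the closest pair of arrays, it was 0.18. ITD78 differed from the same 3 arrays by 0.04 and -0.08 in the 2 probe sets. Both comparisons share ITD598, ITD602 and ITD611.

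The probe set shared by Ly6c1 and Ly6c2, genes for the Ly6C antigen, stayed in the low range. It read 3.56 on ITD78, against 3.23 on ITD613, 3.30 on ITD598, 3.33 on ITD602 and 3.30 on ITD611. ITD78 was highest and 0.24 above the mean of ITD598, ITD602 and ITD611, ITD613 was lowest and differed from that mean by -0.08, and with low values raised to 3.74 nothing was left of either difference. Since the annotation assigns the probe set to both genes, the values cannot be divided between them.

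Ly6d, the B-lineage member, gave no sign of a level above the stepped range. Its probe set read 2.45 on ITD78 and exactly the same value, 2.36, on ITD613, ITD598, ITD602 and ITD611, a value shared by 70 to 339 probe sets of those arrays. Ly6d was the 1 measured member that did not pass the filter on low values.

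Of the 4 measured members, 1 (Ly6f) ranged over at least 2-fold across the 5 arrays, where 10.4% of the genes that passed the filter did (999 genes, and 294 without ITD613). Of all 18193 genes, 5.77% did. The 4 members include Ly6d, which did not pass the filter, and Ly6c1 through the probe set shared with Ly6c2. The shares below are of genes that passed. None was at least 2-fold beyond every other array on ITD613, ITD598, ITD602 or ITD611, where 2.32% of genes were so on any of these 4 arrays. Against ITD598, ITD602 and ITD611 alone, Ly6f was the 1 member at least 2-fold higher on ITD78 (0.426% of genes), and none was lower (0.644% of genes). On ITD613 no member was 2-fold higher (2.82% of genes) or lower (2.33% of genes) than those 3 arrays. With 4 members, counts of 0 are close to these shares and are no result about the family.

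The wider Ly6/uPAR family, genes whose proteins carry the Ly6 fold or a related one, was mostly in the low range. Of 42 listed genes 29 had a probe set of their own, 9 of which passed the filter, and on all 5 arrays 28 of the 29 lay below 3.74. Ly6c2, also listed, was read through the probe set shared with Ly6c1 and is not among the 29. The exception was Plaur, which encodes the urokinase receptor of myeloid cells. Plaur read 3.20 on ITD613 and 3.47 on ITD78, against 4.30 on ITD598, 4.46 on ITD602 and 4.30 on ITD611. Its values on ITD613 and ITD78 are in the low range. How many of all genes are split in this way was not counted, so nothing particular to Plaur is read from it. Cd177, a neutrophil surface antigen, read 1.44 on ITD613, against 2.84 on ITD78, 3.36 on ITD598, 3.22 on ITD602 and 2.69 on ITD611. It was the 1 family gene at least 2-fold beyond every other array, and all its values are in the low range. Of all genes that passed the filter, 2.32% were so on ITD613, ITD598, ITD602 or ITD611. Plaur and Cd177 were the 2 family genes with a range over 2-fold, where 5.77% of all 18193 genes and 10.4% of those that passed the filter had one. Both were also at least 2-fold lower on ITD613 than on ITD598, ITD602 and ITD611, through ITD613 values in the low range. No family gene that passed was 2-fold higher on ITD613, or higher or lower on ITD78. Of all genes that passed, 2.33% were lower and 2.82% higher on ITD613, and 0.644% and 0.426% on ITD78. Next came Psca (0.66), Pinlyp (0.62), Lynx1 (0.54) and Slurp1 (0.51). With low values raised to 3.74, or without ITD613, 0 family genes ranged over 2-fold. The median range was 0.25 over the 29 genes, against 0.36 over all 18193 genes, and 0.51 over the 9 that passed the filter, against 0.43 over all genes that passed.

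Genes that build or attach the GPI anchor of Ly6 proteins were described as a second list. Of 27 genes 25 had a probe set of their own, and 23 of these passed the filter. Their median range was 0.54, against 0.43 over all genes that passed. Of these 23, 3 (Pigq, Pgap2 and Pigg) ranged over 2-fold, where 10.4% of all genes that passed did. Pigq, a subunit of the enzyme of the first step of anchor synthesis, read 9.51 on ITD613 and 8.75 on ITD78, against 8.18 on ITD598, 8.0 on ITD602 and 8.22 on ITD611. ITD613 was 1.37 above the mean of ITD598, ITD602 and ITD611, and ITD78 was 0.61 above it. Of the 7 Pigq probe sets, 4 had ITD613 highest and ITD78 second (ranges of 1.24 to 1.51), while the other 3 were in the low range with ranges of 0.11 to 0.25. Pgap2, which remodels the lipid of the finished anchor, read 5.49 on ITD613 and 6.08 on ITD78, against 6.75 on ITD598, 6.54 on ITD602 and 6.83 on ITD611, and ITD613 and ITD78 were below the other arrays in all 3 of its probe sets. Pigg, which modifies a mannose of the anchor, read 4.11 on ITD613 and 3.12 on ITD78, against 3.21 on ITD598, 3.16 on ITD602 and 2.85 on ITD611. Pigh, Pigc and Pigx had ranges of 0.98, 0.81 and 0.77. Against ITD598, ITD602 and ITD611, ITD613 was at least 2-fold higher in 1 gene of the list (Pigq) and 2-fold lower in 1 (Pgap2), and ITD78 in none. Of all genes that passed, 2.82% were higher and 2.33% lower on ITD613, and 0.426% and 0.644% on ITD78. Without ITD613, 0 genes of the list ranged over 2-fold. The list's median difference was 0.03 on ITD613 and -0.03 on ITD78, beside 0.01 and -0.02 over all genes that passed.

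Interferon-stimulated genes were described because several Ly6 genes respond to interferon. Of 30 listed genes 28 had a probe set of their own, and 17 of these passed the filter. Their median range was 0.54, against 0.43 over all genes that passed. Of these 17, 1 (Trim30a) ranged over 2-fold, where 10.4% of all genes that passed did. Trim30a, an interferon-induced member of the TRIM family, read 4.53 on ITD78 and 4.78 on ITD613, against 3.88 on ITD598, 3.50 on ITD602 and 3.80 on ITD611, and ITD78 and ITD613 were both above the other 3 arrays in its other probe set as well. Bst2 (tetherin), itself a GPI-anchored protein, ran the other way, with 4.59 on ITD78 and 4.80 on ITD613, against 5.33 on ITD598, 5.48 on ITD602 and 5.40 on ITD611. Usp18, Irf1, Ifih1 and Igtp had ranges of 0.78, 0.62, 0.62 and 0.60. Of these, Usp18 and Ifih1 did not pass the filter and lie in the low range on all 5 arrays. The median difference from ITD598, ITD602 and ITD611 was 0.02 on ITD78 and -0.08 on ITD613, beside -0.02 and 0.01 over all genes that passed. No gene of the list was 2-fold above or below those 3 arrays on either. Of all genes that passed, 0.426% were above and 0.644% below on ITD78, and 2.82% and 2.33% on ITD613. With 17 genes, counts of 0 are close to these shares and are no result about the list. Without ITD602, 0 genes of the list ranged over 2-fold.

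**Figure D4:**
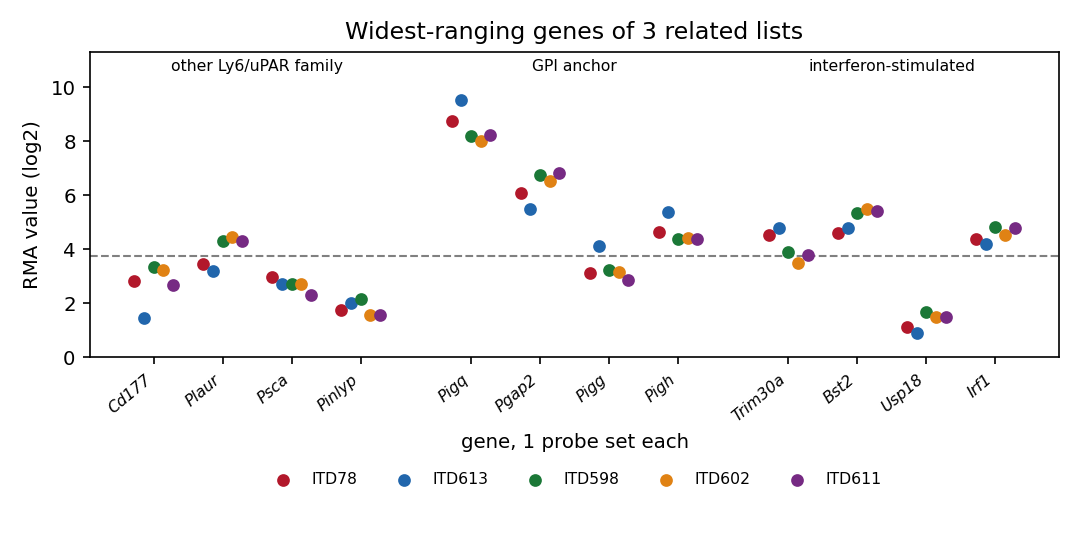
RMA values (log2, y axis) on the 5 arrays of the 4 genes with the widest range in each of 3 lists (x axis), 1 point per array, with the dashed line at 3.74. Plaur, Pgap2, Bst2, Usp18 and Irf1 are lower and Pigq, Pigh and Trim30a higher on ITD78 and ITD613 than on the other 3 arrays. All 5 Usp18 values are in the low range, so no direction is read from them. How many of all genes are split in this way was not counted.

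Lineage markers were read to place these values in the cells measured. The pan-leukocyte gene Ptprc read between 7.41 and 9.0 and the progenitor regulator Myb read between 8.91 and 9.91, while Kit and Cebpa, also on the progenitor list, were at or below 0.92 and 1.91 on every array. None of 5 lymphoid markers with a probe set of their own and 1 of 6 fibroblast and endothelial markers (Pecam1) exceeded 3.74 on any array. The summed log2 value of the 8 granulocyte markers was lowest on ITD78 at 19.0, against 27.7 on ITD613, 31.7 on ITD598, 28.8 on ITD602 and 22.1 on ITD611, and 5 of the 8 did not exceed 3.74 on any array. The gap between ITD78 and ITD611 lay mostly in S100a8 (2.49 and 3.98) and S100a9 (2.11 and 3.77), whose ITD78 values are in the low range. Ngp read 3.99 on both arrays. The 6 monocyte and macrophage markers summed to 16.3 on ITD78 and 14.1 on ITD613, against 21.7 on ITD598, 22.6 on ITD602 and 22.0 on ITD611, and 3 of the 6 (Ccr2, Cx3cr1 and Cd14) did not exceed 3.74 on any array. Adgre1, which encodes a macrophage surface antigen, read 3.00 on ITD78 and 2.68 on ITD613, against 6.51 to 7.21 on the other 3 arrays, and Fcgr1, an Fc receptor for IgG, read 3.87 on ITD78 and 3.06 on ITD613, against 5.25 to 5.83. The granulocyte sum was thus lowest on the array where Ly6f was high, but its gap from ITD611 rests on ITD78 values in the low range. The monocyte sum was low on the 2 arrays where Plaur, Pgap2 and Bst2 were low and Pigq was high. The part of these markers in those differences was not tested. In such bulk samples, fewer cells of a type and less RNA per cell cannot be told apart. The array titles give ITD602 a number in the form of a date that differs from the one shared by the other 4. The labels do not say what it stands for, and for ITD602 it cannot be told apart from the construct.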

How the data were processed

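RNA of 32D cells was hybridised to Affymetrix mouse expression arrays, 1 per construct. Per the submitters' processing notes the authors summarised the arrays by RMA, and the table holds their log2 value of each of 45101 probe sets. Version, software and zero point are not given in the sources used here. Base 2 was inferred, since the highest value, 13.45, would be beyond the scanner's limit as a natural log (11.09). Array medians ran from 1.99 to 2.06.

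Of the probe sets, 34945 had 1 gene symbol in GEO's platform annotation, 932 had several, 9160 were not listed and 64 were controls. The probe set with the highest mean stood for its gene, and genes were kept whose highest value reached the 60th percentile of all values. Each gene was compared by its range over the arrays and by its distance from the nearest other array, with 2-fold as the limit. No test was possible. The members and lists were chosen with earlier results of these data known. Named genes were all members, up to 6 genes with the widest range per list, and the 3 genes most like Ly6f; neighbours and lineage markers were added. Protein sequences were not used here. Python 3.11.15, pandas 2.3.3, numpy 2.4.6 and Biopython 1.88 (global alignment) were used.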

Additional observations from a re-analysis of the deposited data

How the results depend on the processing

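No paired analysis was possible because each construct has 1 array. With 1 array per construct, every value above rests on single arrays. Ly6f was the only member at least 2-fold apart, and on ITD78 only, in all alternatives that kept ITD78, and its difference from the other arrays was 3.49 to 3.75 except with low values raised to 3.74, where it was 2.33. Members ranging over 2-fold numbered 0 to 1 when single arrays were left out (0 without ITD78). With low values raised, 0 other Ly6/uPAR genes, 2 GPI anchor genes and 703 of all genes ranged over 2-fold, against 2, 3 and 999. With all probe sets of a gene averaged, 1 GPI anchor gene, 0 interferon-stimulated genes and 662 of all genes did, against 3, 1 and 999. When single arrays were left out, 0 to 3 GPI anchor genes (0 without ITD613), 0 to 1 interferon-stimulated genes (0 without ITD602), 0 to 2 other Ly6/uPAR genes (0 without ITD613) and 294 to 945 of all genes (294 without ITD613) ranged over 2-fold. ITD78 was then 2-fold above every other array in 5 to 41 genes (41 without ITD613). The Ly6e difference of ITD613 was 0.36 with its probe sets averaged and 0.62 without those ending in _x_at or _s_at. The Ly6c1 difference of ITD78 was 0 with low values raised. The other differences of Ly6c1, Ly6d and Ly6e moved by less than 0.18, the SD of differences between the closest arrays. Low signal limits Ly6d, Ly6c1 and the low Ly6f values.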
